A study of Mus musculus with 17 samples.

Results

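Cluster 5 was 1 of 9 cell clusters in the single-cell RNA-seq of mouse brain, and its cells carried the genes of vascular smooth muscle and other mural cells. It was described from all 26624 usable genes in its 2 deposited columns, of which 16432 had a level above 0 in the 6-OHDA library and 16317 in the 6-OHDA+NDST3 library. The series held 17 samples in all, of bulk RNA-seq, H3K27ac CUT&RUN, ATAC-seq and single-cell RNA-seq. All mice were wild-type ICR. The 6-OHDA groups received a unilateral injection of 6-OHDA at 10 µg per µL, a toxin that kills catecholamine neurons, into the substantia nigra at 8 weeks of age, followed by saline. The 6-OHDA+NDST3 groups received the same lesion and, on day 5 after it, 2 µL of a vector carrying NDST3, an enzyme that modifies heparan sulfate, into the same site. The sham groups had no lesion, and their single-cell library was not analysed here. The tissue had been dissociated, cleared of myelin and depleted of red blood cells before capture, so cells that survive these steps are the ones described.

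Mural cells wrap blood vessels. Smooth muscle cells of arteries and arterioles contract through a myosin motor that runs on alpha-actin filaments and is switched on by calcium and a light-chain kinase, whereas pericytes sit on capillaries, carry little of this machinery and depend on PDGF-B signalling through Pdgfrb. Fibroblasts of the meninges and perivascular space share some matrix genes with both.

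The table gave, for each gene, a mean over the cells of a cluster of the natural logarithm of normalised UMI counts plus 1, here called the level. There was 1 library per condition and neither the number of cells nor the depth per cell was part of the table, so levels and their differences are given without a test or an error. A gene was taken as detected at a level of at least 0.1 in either library, and as leading the cluster where its level, averaged over the 2 libraries, was at least 1 above its highest level in the other 8 clusters. Both choices are arbitrary sizes. Of all 26624 genes, 7456 were detected in cluster 5, and counts of detected list members stand beside that share. How many of all genes had their highest level in cluster 5 was not counted. Counts of list members highest there are therefore descriptions with no background. Where a value is given as the most in any other cluster, it is the highest in either library, while values given for a named other cluster, and the ranking of clusters, use the average of the 2 libraries. The clusters were made from the same values, so the leading genes describe cluster 5 and are not a test of it.

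The 2 single-cell libraries differed in sex-linked transcripts, which bears on every difference between them. In cluster 5 the Y-linked Ddx3y had a level of 0.00142 in the 6-OHDA library and 0.122 in the 6-OHDA+NDST3 library, and the Y-linked Uty had 0 and 0.0848. Xist, expressed from the inactive X chromosome, had 2.13 and 1.79. The Y-linked contrast was present in the other 8 clusters, where Uty reached at most 0.00276 in the 6-OHDA library and was between 0.0121 and 0.114 in the 6-OHDA+NDST3 library. The study's methods name female mice only, whereas Ddx3y was also between 69.2 and 90.1 CPM (counts scaled to an equal library total) in all 5 bulk libraries. The part of sex in the differences given here was not tested.

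The genes of the contractile apparatus stood far above every other cluster. All 6 markers fixed for these cells, Acta2, Tagln, Myl9, Tpm2, Myh11 and Mylk, led cluster 5, as did 59 genes in all, 0.222% of the 26624. Acta2 (NCBI gene 11475), the smooth muscle alpha-actin, had a level of 3.73 in the 6-OHDA library and 3.95 in the 6-OHDA+NDST3 library, against at most 0.216 elsewhere, in cluster 1 of the 6-OHDA library. Tagln, the actin-binding protein transgelin, had 3.36 and 3.49, against at most 0.0818. Myl9, the regulatory light chain of smooth muscle myosin, had 3.29 and 3.33, against at most 0.205, in cluster 2 of the 6-OHDA+NDST3 library. By the floor of 0.1, Acta2 was therefore also detected in cluster 1 and Myl9 in cluster 2. Myl9 also passed the floor in clusters 7 and 9 of the 6-OHDA library, with 0.112 and 0.134. Tpm2, a tropomyosin of the thin filament, had 2.84 and 2.82. Myh11, the smooth muscle myosin heavy chain, had 2.68 and 2.80, with no other cluster above 0.0432. Mylk, the kinase that phosphorylates the light chain, had 2.39 and 2.49. It was also detected in cluster 7, with 0.185 in the 6-OHDA library and 0.219 in the 6-OHDA+NDST3 library. The median level of these 6 markers was 3.07 in cluster 5 and at most 0.0679 in any other cluster, both averaged over the 2 libraries.

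**Figure D1:**
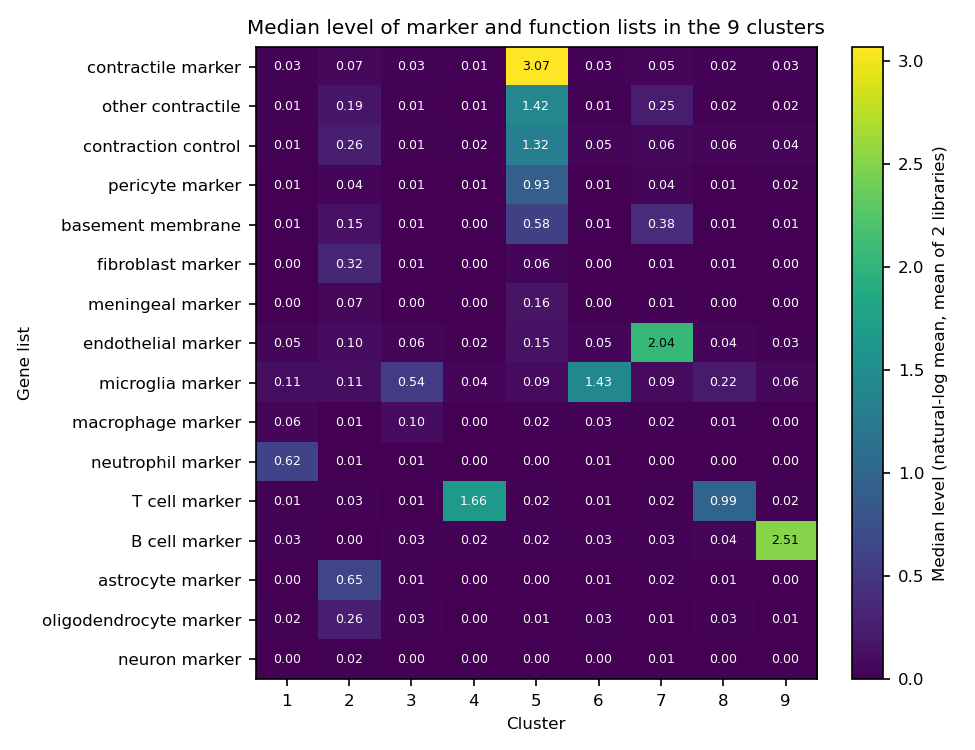
Each row is a gene list and each column a cluster; the colour and the printed value give the median level of the list's genes (natural-log mean, mean of the 2 libraries). The contractile, contraction control and pericyte lists are highest in cluster 5, at 3.07, 1.42, 1.32 and 0.93, while the endothelial list is highest in cluster 7 and the fibroblast list in cluster 2.

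A further list of 20 contractile genes was detected in full in cluster 5, and 19 of its members had their highest level there. Its median level was 1.42. Cald1, the actin-binding caldesmon, had 3.45 and 3.36 in the 6-OHDA and 6-OHDA+NDST3 libraries, and Tpm1, another tropomyosin, had 2.83 and 2.65. Both were also present in a second cluster, Cald1 at 1.21 in cluster 2 and Tpm1 at 0.922 in cluster 7. In contrast, Pln, the phospholamban that restrains the calcium pump of the sarcoplasmic reticulum, had 1.71 and 1.80 and at most 0.0124 elsewhere. Des, the intermediate filament desmin, had 1.44 and 1.42, and Lmod1, which nucleates actin filaments, had 1.30 and 1.32. Markers of mature smooth muscle followed the same pattern. Cnn1, the smooth muscle calponin, had 0.97 and 0.836 against at most 0.0272 elsewhere. Actg2, an actin of visceral and some vascular muscle, had 0.231 and 0.223. The exception in the list was Cnn3, a calponin of non-muscle cells, which had 0.744 and 0.746 in cluster 5 and 1.11 in cluster 2.

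**Figure D2:**
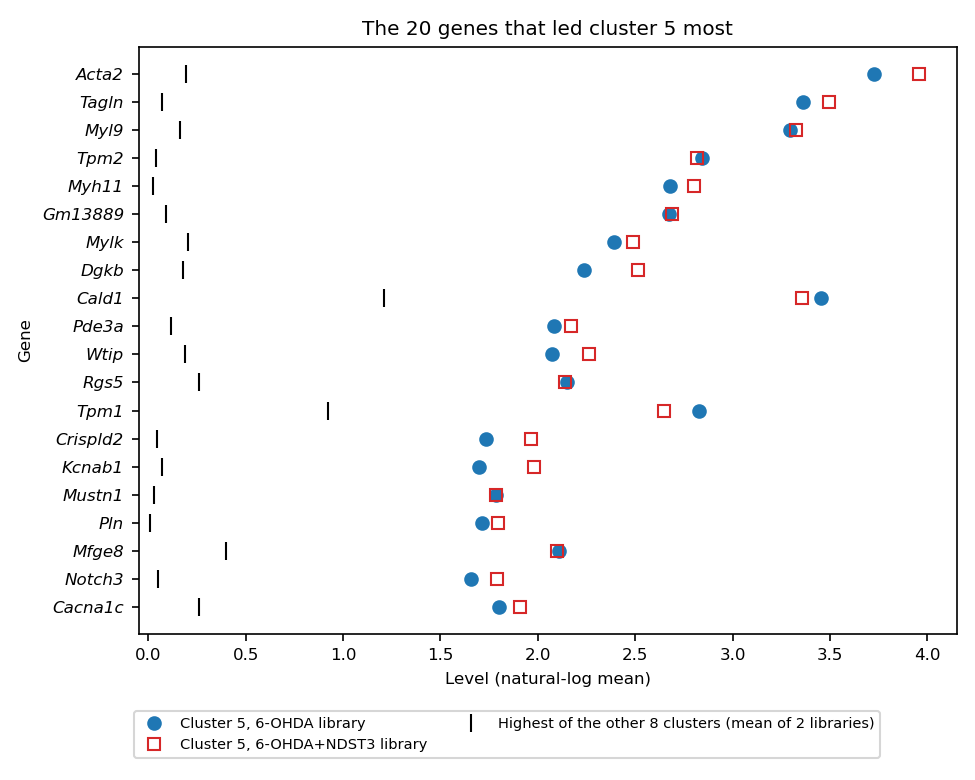
Levels (natural-log mean) of the 20 genes with the largest lead. Filled circles are cluster 5 in the 6-OHDA library, open squares cluster 5 in the 6-OHDA+NDST3 library, and bars the highest of the other 8 clusters (average of the 2 libraries); every cluster 5 value lies to the right of its bar, and Cald1 and Tpm1 have the largest levels outside the cluster, at 1.21 and 0.92.

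The remaining leading genes included regulators that are less often used as markers. Gm13889, a predicted gene, had 2.67 and 2.69 in the 6-OHDA and 6-OHDA+NDST3 libraries. Dgkb, a diacylglycerol kinase, had 2.23 and 2.51, and Wtip, a LIM-domain adaptor of cell junctions, had 2.07 and 2.26. Crispld2, a secreted protein, had 1.73 and 1.96, Kcnab1, a subunit of voltage-gated potassium channels, 1.70 and 1.98, and Mustn1, a small nuclear protein of muscle, 1.78 and 1.79. Mfge8, a secreted glycoprotein known from the arterial wall, had 2.11 and 2.1. The leads ended without a gap. Nexn, an actin-binding protein of muscle, was the last gene inside with a lead of 1.05, and Cap2, which severs actin filaments, was the first outside with 0.997. For 22 of the 59 genes no other cluster reached a level of 0.1 in either library. The cluster with the next highest level was cluster 7 for 25 of the genes and cluster 2 for 24.

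The genes that set smooth muscle tone were detected together. All 21 genes of the contraction control list were detected, with a median level of 1.32, and 17 had their highest level in cluster 5. Calcium entry was represented by Cacna1c, the L-type calcium channel, with 1.80 in the 6-OHDA library and 1.91 in the 6-OHDA+NDST3 library. Calcium release was represented by Itpr1, the inositol trisphosphate receptor, with 1.30 and 1.40, and by Ryr2, a ryanodine receptor, with 0.672 and 0.804. The nitric oxide pathway that relaxes the muscle was present from sensor to effector. Gucy1a1, a subunit of soluble guanylate cyclase, had 1.21 without and 1.12 with NDST3, and its partner subunit Gucy1b1 had 1.35 and 1.30. Prkg1, the kinase that cyclic GMP activates, had 2.82 and 3.0, although it also reached 1.48 in cluster 7. Pde3a, a phosphodiesterase that degrades cyclic nucleotides, had 2.08 and 2.17, and Pde5a, which degrades cyclic GMP, had 1.44 and 1.42. Rgs4 and Rgs5, which shorten G-protein signals, had 1.59 and 2.15 in the 6-OHDA library. The exceptions to the highest level in cluster 5 included Rhob, a small GTPase, with 0.796 and 0.756 against 2.01 in cluster 6.

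Of 20 vasoactive receptors, 8 were detected in cluster 5. Ednra, the endothelin receptor of smooth muscle, had 0.981 in the 6-OHDA library and 0.905 in the 6-OHDA+NDST3 library. P2ry14, a receptor for UDP-sugars, had 0.531 and 0.545, Tbxa2r, the thromboxane receptor, 0.303 and 0.319, and P2rx1, an ATP-gated channel, 0.282 and 0.215. Levels of the other receptors were low in a table whose depth per cell is unknown, so their absence cannot be read from it.

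Transcription factors of the mural lineage were detected as well. Myocd, the coactivator that switches on smooth muscle genes with serum response factor, had 0.604 and 0.696 in the 6-OHDA and 6-OHDA+NDST3 libraries and at most 0.0508 in other clusters. Foxs1, a forkhead factor, had 1.08 and 1.10, against at most 0.0139. Tbx2 had 0.728 and 0.704 and Tbx18 had 0.518 and 0.537, both T-box factors. The broadly used Ebf1, a factor also known from B cells, had 2.62 and 2.63 in cluster 5 and 3.23 in cluster 9. Of the 30 factors listed, 24 were detected and 13 were highest in cluster 5. The Notch pathway, which maintains arterial smooth muscle, had 9 of 12 members detected. Notch3, its receptor in mural cells, had 1.66 and 1.79 against at most 0.0674 elsewhere. Its target Heyl had 0.532 and 0.64, its target Hey2 had 0.435 and 0.443, and its ligand Jag1 had 0.494 and 0.562. Hes1, a target in many cell types, was higher in cluster 7 than in cluster 5.

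Promoter sequences were taken from RefSeq (GRCm38.p6, 250 bases before to 50 bases after a transcription start) and searched on both strands for 3 short motifs of factors in these pathways. The CArG box, searched as CC and GG with only A or T in the 6 bases between them, is bound by serum response factor, GGAATG by TEAD factors and TGGGAA by RBPJ, the DNA-binding partner of Notch; GGAATG and TGGGAA can overlap each other. A promoter was found for 46 of the 59 leading genes, and a CArG box stood in 3 of them, or 6.52%, against 488 of 27025 genes, or 1.81%. GGAATG stood in 14 of the 46, or 30.4%, against 16.6% of all genes, and TGGGAA in 19, or 41.3%, against 28.3%. With 1 of the inner bases of the CArG box left free, a search added after the data were seen, 11 of the 46 held one, or 23.9%, against 11.3% of all genes. These shares describe matching letters and not binding. The 3 leading genes with an exact CArG box before a start were Myl9, Filip1l, a protein of the actin cytoskeleton, and Dmd, the dystrophin that anchors the cytoskeleton to the matrix. Their boxes are shown in capitals, 5′ to 3′ on the strand of the gene, because they are the letters the count rests on. The Myl9 window was chr2:156775283-156775332 on the plus strand, with the box starting 161 bases before the start. The Filip1l window was chr16:57549160-57549209 on the plus strand, with the box 62 bases before it. The Dmd window was chrX:82948752-82948801 on the plus strand, with the box 98 bases before it.
Myl9: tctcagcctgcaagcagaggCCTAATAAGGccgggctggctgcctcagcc
Filip1l: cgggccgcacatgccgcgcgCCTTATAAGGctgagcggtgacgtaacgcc
Dmd: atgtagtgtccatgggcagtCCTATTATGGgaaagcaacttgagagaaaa

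Acta2, the gene with the largest lead, held GGAATG 146 bases and TGGGAA 27 bases before its start, and both are shown in capitals in the 250 bases upstream of it, at chr19:34255374-34255623 on the minus strand. It held no exact CArG box, but 2 stretches with 1 inner base that is not A or T, ccctatatgg 84 bases and ccttgtttgg 34 bases before the start, which are not marked and of which the second overlaps TGGGAA. Tagln and Myh11 were among the genes not matched.
Acta2: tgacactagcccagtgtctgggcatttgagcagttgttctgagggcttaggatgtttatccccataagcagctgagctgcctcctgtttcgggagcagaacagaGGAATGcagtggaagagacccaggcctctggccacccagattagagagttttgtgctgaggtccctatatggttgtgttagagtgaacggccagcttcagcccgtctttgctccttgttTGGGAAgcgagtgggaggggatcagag

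Pericyte genes were also highest in cluster 5. Several of them, such as Pdgfrb, Rgs5, Cspg4 and Mcam, are also known from smooth muscle, and cluster means cannot show whether pericytes were among the cells. Of 12 pericyte markers, 11 were detected, all 12 had their highest level in cluster 5 among the 9 clusters, and the median level was 0.93. Pdgfrb, the PDGF receptor of mural cells, had 1.13 in the 6-OHDA library and 1.22 in the 6-OHDA+NDST3 library. Rgs5 had 2.15 and 2.14, Higd1b, a small protein known from pericytes, 1.15 and 1.14, and Cspg4, the NG2 proteoglycan, 1.02 and 1.08. Vtn, the adhesive protein vitronectin, had 1.41 and 1.22. Several further markers of brain pericytes were detected. Atp13a5, a cation pump, had 0.652 and 0.663, Abcc9 and Kcnj8, the subunits of a potassium channel, had 0.342 and 0.243 in the 6-OHDA library, whereas Anpep, an aminopeptidase, stayed under 0.1 with 0.0925 and 0.0804.

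Most basement membrane genes were detected, and fewer interstitial ones. Of 15 basement membrane genes, 14 were detected, with a median level of 0.581, and 7 were highest in cluster 5. Col4a1, a chain of the collagen of basement membranes, had 1.33 and 1.33 in the 2 libraries, and Lamb2, a laminin chain, had 1.05 and 1.17. Col18a1 had 0.617 and 0.619 against at most 0.117 elsewhere, and Lamc3 had 0.301 and 0.401 against at most 0.0528. Of 28 interstitial matrix genes, 12 were detected. Aspn, the small proteoglycan asporin, had 1.60 and 1.61 and at most 0.0542 in any other cluster, and Eln, elastin, had 0.705 and 0.579. Of 26 adhesion genes, 24 were detected and 16 were highest in cluster 5, among them the integrins Itga7, with 0.78 and 0.76, and Itga8, with 0.669 and 0.731. Of 6 caveola genes, 5 were detected, and Cavin1, a coat protein of caveolae, had 1.59 and 1.63.

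Markers of other cells were low, with exceptions that include part of the meningeal list. Of 12 fibroblast markers, 5 were detected in cluster 5, and their median level was 0.0573 against 0.32 in cluster 2. Mgp, an inhibitor of calcification that smooth muscle also makes, led cluster 5, with 2.60 and 2.28. Pdgfra, the PDGF receptor that marks fibroblasts, had 0.0023 and 0.00664, and Lum, the proteoglycan lumican, had 0.015 and 0.0153. Of the genes the study used to name fibroblasts, Acta2, Dmd and Dstn led cluster 5. Col1a2, a fibrillar collagen chain in the same list, had 0.756 and 0.641 in cluster 5 and 0.538 in cluster 2, and Col3a1 had 0.333 and 0.179. In the meningeal list of 10 genes, Tbx18, Zic1, Foxc1, Foxc2 and Slc6a20a were detected and were highest in cluster 5. The rest were not detected and were highest in other clusters. The list median was 0.164 in cluster 5, above the 0.0695 of cluster 2, the next highest.

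Endothelial markers had a median level of 0.151 in cluster 5 and 2.04 in cluster 7, and none of the 10 was highest in cluster 5. Cldn5, the tight junction claudin, had 0.307 in the 6-OHDA library and 0.162 in the 6-OHDA+NDST3 library. Esam had the highest level of the list in cluster 5, with 0.873 and 0.958, against 1.84 and 1.94 in cluster 7. Of the 10 markers, 7 were lower and 3 higher in the 6-OHDA+NDST3 library. Transcripts of abundant cells were present at like levels in clusters of other kinds. C1qa, a complement gene of microglia, had 0.824 and 0.698 in cluster 5, against 0.86 and 0.629 in cluster 7 and 3.71 and 3.75 in cluster 6. Hbb-bs, a haemoglobin chain, had 0.454 and 0.313 in cluster 5. No neutrophil, T cell, astrocyte or oligodendrocyte marker was detected, 1 of 7 B cell markers was, and of 10 neuron markers Map2 and Stmn2 were, with Map2, a microtubule protein, at 0.453 and 0.508. All 7 T cell and all 7 B cell markers were nevertheless higher in the 6-OHDA+NDST3 library, with summed levels of 0.0327 and 0.24 for T cells and of 0.118 and 0.339 for B cells. All but 1 were under the floor, and how many of all genes as low were higher was not counted. The median difference of the T cell list was 0.0302 in cluster 5 and from 0.00831 to 0.551 in the others. That of the B cell list was 0.0161 and from -0.283 to 0.0292. The summed level of the endothelial list was 2.47 and 2.09, that of the microglia list 1.48 and 1.24, and that of the contractile markers 18.3 and 18.9 in the 6-OHDA and 6-OHDA+NDST3 libraries. The part of these transcripts in the cluster 5 levels was not tested.

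Whether NDST3 altered these cells can be described but not tested. Levels in the 2 libraries were close, with a Pearson correlation of 0.994 over the 26624 usable genes, which share libraries and cells. Most of these genes were below the detection floor, which raises this value. Over the 7456 detected genes, the differences, 6-OHDA+NDST3 minus 6-OHDA, had a standard deviation of 0.0578 and a median of -0.0039. Only 12 genes were higher by at least 0.25, or 0.161%, and 13 were lower by as much, or 0.174%. Of the 59 leading genes, 2 were higher and 1 was lower by this size, and their median difference was 0.0318. For comparison, the same size was passed by 7 higher and 9 lower genes in cluster 7 and by 166 and 195 in cluster 9.

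**Figure D3:**
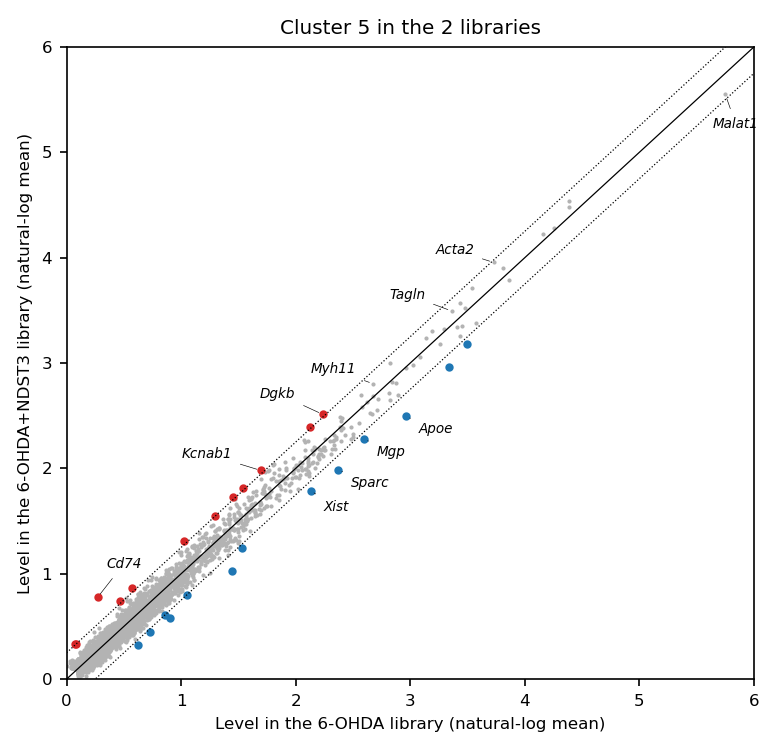
Each point is 1 of the 7456 detected genes of cluster 5, with its level in the 6-OHDA library on the x axis and in the 6-OHDA+NDST3 library on the y axis (natural-log means). The solid line marks equal levels and the dotted lines a difference of 0.25; the 12 red and 13 blue points lie outside them, and Acta2, Tagln and Myh11 lie inside.

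No gene of either contractile list reached the size of 0.25. Of the 6 markers, 5 were higher with NDST3 and Tpm2 was lower, with a median difference of 0.111 and none past 0.25. Of 11 mitochondrial transcripts in the same cluster, 9 were higher and 2 lower, with a median difference of 0.101 and medians from -0.0885 to 0.254 in the other clusters, and their part in the differences was not tested. Acta2 had the largest difference of the 6, 0.227, while the median difference of Acta2 in the other 8 clusters was -0.0124. Its highest average level in those clusters was 0.196, so its difference there could only be small. The standard deviation over the detected genes of cluster 5 was 0.0578, but it does not measure the spread of a gene as high as Acta2. Those genes had a median level of 0.254, against an average of 3.84 for Acta2. The wider contractile list had 9 genes higher and 11 lower and a median of -0.00423. Its lowest value was -0.18, for Tpm1. The pericyte list had a median difference of -0.0121, with Mcam, an adhesion molecule of mural cells, at 0.229 and Vtn at -0.19. Of the 16 matrix enzymes and inhibitors, 15 were lower, with a median of -0.0297, and of the 12 Notch genes 10 were higher, with a median of 0.0391. These sizes are all below the 0.25 used here, and over all detected genes 46.8% were higher. Of the 16 matrix genes 12 were detected, and of the 12 Notch genes 9. Their counts therefore include genes under the floor, which the 46.8% leaves out.

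The genes with the largest differences fell into kinds. Among the 12 higher genes were Kcnab1, at 1.70 and 1.98, and Dgkb, at 2.23 and 2.51, both leading genes of the cluster, with median differences of -0.0057 and -0.00235 in the other 8 clusters. Their highest average levels there were 0.0712 and 0.176. Differences there could therefore only be small, and they do not show that the change was particular to cluster 5. Slc6a17, a vesicular amino acid transporter, had 0.568 and 0.86, against at most 0.0571 in any other cluster, and Rgs6, a regulator of G-protein signals, had 1.03 and 1.31. Fry, a large microtubule-associated protein, had 2.12 and 2.40, Pde4b, a phosphodiesterase for cyclic AMP, 1.46 and 1.73, Cacnb2, a calcium channel subunit, 1.54 and 1.81, and Pdlim5, a protein of the Z-disc, 1.29 and 1.55. B4galt1, a galactosyltransferase, had 0.465 and 0.743. The other 3 were the MHC class II genes Cd74, with 0.271 and 0.777, H2-Aa, with 0.0762 and 0.336, and H2-Ab1, with 0.0811 and 0.333. Those 3 were also higher in every other cluster, with median differences of 0.46, 0.274 and 0.283, and after subtraction of these the difference in cluster 5 was 0.0454 for Cd74, -0.0148 for H2-Aa and -0.0305 for H2-Ab1.

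Among the 13 lower genes, several were abundant in myeloid cells and were lower in most clusters. Apoe, the lipid carrier, had 2.96 in the 6-OHDA library and 2.49 in the 6-OHDA+NDST3 library, with a median difference of -0.277 in the other 8 clusters. Ctsd, a lysosomal protease, had 1.44 and 1.02, and Cst3, a protease inhibitor, 3.34 and 2.96, with medians of -0.254 and -0.28 elsewhere. Lyz2, a lysozyme of myeloid cells, had 0.903 and 0.58, and Spp1, osteopontin, had 0.621 and 0.325. The difference of Lyz2 became 0.0287 and that of Spp1 0.0328 after the median of the other clusters was subtracted. The other lower genes included several secreted proteins. Of the 28 interstitial matrix genes, 19 were lower and 9 higher, with a median of -0.0136, and 2, Mgp and Ogn, passed 0.25. Only 12 of the 28 were detected, so most of these signs come from genes under the floor. The share of all such low genes that were lower was not counted. Mgp had 2.60 and 2.28, with a median difference of -0.0357 in the other 8 clusters and a range from -0.0488 to 0.141. Ogn, the proteoglycan osteoglycin, had 0.727 and 0.449, with a range from -0.00915 to 0.106 in the others. Rarres2, the chemoattractant chemerin, had 1.06 and 0.801, with a range from -0.0902 to 0.00679. Sparc, a collagen-binding glycoprotein of basement membranes, had 2.37 and 1.99, and its difference ranged from -0.405 to 0.0416 in the others. The remaining genes were Ptn, a heparin-binding growth factor, with 0.863 and 0.609, Bsg, a membrane glycoprotein, with 1.54 and 1.25, Tmsb4x, which binds actin monomers, with 3.49 and 3.18, and Xist, given above. In the other 8 clusters the difference ranged from -0.181 to -0.022 for Ptn, from -0.171 to 0.00413 for Bsg and from -0.453 to -0.0538 for Tmsb4x. With the median of those clusters subtracted, the differences of Ptn, Bsg and Tmsb4x became -0.208, -0.171 and -0.156, short of the size of 0.25.

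The size of a gene moved with its difference in cluster 5. The 12 higher genes had a median span in the genome of 267636 bases and the 13 lower genes 6387 bases, against 28299 bases over the detected genes with a known span. Among genes with a level of at least 0.5, the median difference was 0.0406 for 409 genes of at least 100 kb and -0.0431 for 519 genes under 10 kb. Over all 1820 such genes the Pearson correlation of the difference with the logarithm of the span was 0.389, given as a description, and it was between -0.0664 and 0.35 in the other clusters. Malat1, a nuclear RNA, had 5.75 and 5.55. The part of gene size in the differences of Dgkb, Kcnab1, Mgp and Ogn was not tested.

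**Figure D4:**
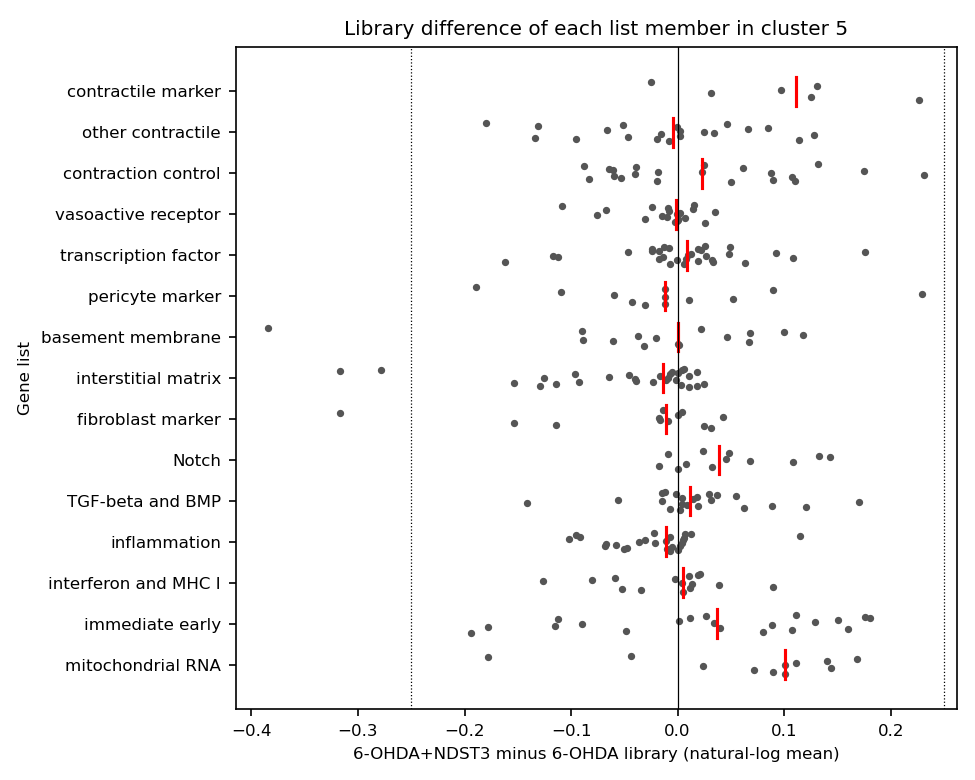
Each point is a gene of the list named on the y axis, placed by its difference between the 6-OHDA+NDST3 and the 6-OHDA library in cluster 5 (natural-log means, x axis). Red bars are list medians and dotted lines mark 0.25 in either direction; the contractile marker median lies at 0.111, and the points below -0.25 are Sparc, Mgp (drawn in both lists that hold it) and Ogn.

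Heparan sulfate genes were examined because NDST3 acts on this chain. The mouse gene Ndst3 itself had a level of 0.628 in the 6-OHDA library and 0.722 in the 6-OHDA+NDST3 library in cluster 5, with at most 0.15 in any other cluster. The vector carried the human gene, and how many of its transcripts would be counted for the mouse gene is unknown. Sdc2, a syndecan that carries the chains, had 1.49 and 1.43, and Gpc3, a glypican, had 0.476 and 0.506. Of 23 genes, 13 were detected, 6 were highest in cluster 5, and the median difference was -0.0161.

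Bulk RNA-seq of the same study gave an independent measure with 2 sham, 1 6-OHDA and 2 6-OHDA+NDST3 libraries of 51003699 to 70533326 counts. In bulk samples, fewer mural cells and less RNA per mural cell cannot be told apart, and other cells may express the same genes. The labels do not say that replicates came from separate animals, so the p-values measure the spread between these libraries, and the 6-OHDA group borrows its spread from the other groups. Acta2 had 36.3 and 31.7 CPM in the sham libraries, 66.7 CPM in the 6-OHDA library, and 10.3 and 14.3 CPM in the 6-OHDA+NDST3 libraries. Tagln had 18.1 and 10.9 CPM, then 170 CPM, then 5.79 and 4.27 CPM in the same order. Myl9 had 22.9 and 18 CPM, then 59.3 CPM, then 11.7 and 11.9 CPM. For these 3 genes the single 6-OHDA library was the highest and the 6-OHDA+NDST3 libraries the lowest. Myh11 and Tpm2, from the same marker list, did not follow this order, as their 6-OHDA values were below both sham values. How many of all genes show this order was not counted.

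By edgeR's quasi-likelihood test, 15 of the 59 leading genes of cluster 5 rose and 5 fell in the 6-OHDA library against sham at a Benjamini-Hochberg adjusted p under 0.05, while 18.8% and 17.1% of the 19300 genes tested did so, and the median log2 fold change of the 59 was 0.43. Tagln rose by a log2 fold change of 3.55 ± 0.33 (SE; edgeR adjusted p = 0.00823), Myl9 by 1.53 ± 0.17 (adjusted p = 0.00845) and Acta2 by 0.97 ± 0.22 (adjusted p = 0.0266). Flna, the actin cross-linker filamin A, had 82.5 and 51.5 CPM in sham and 290 CPM in the 6-OHDA library (log2 fold change 2.11, edgeR adjusted p = 0.00912). Of the 25 contractile genes tested from both lists, 10 rose and 1, Pcp4l1, fell, with a median of 0.97. Myh11 and Tpm2 did not pass. Myh11 had 22 and 19.1 CPM in sham and 18.5 CPM in the 6-OHDA library (log2 fold change -0.15 ± 0.17, edgeR adjusted p = 0.533), and Tpm2 had 22.5 and 20 CPM and 17.3 CPM (log2 fold change -0.30 ± 0.21, edgeR adjusted p = 0.32). The 5 leading genes that fell were Dgkb, Kcnab1, Gucy1a1, Gucy1b1 and Rcan2, an inhibitor of calcineurin, of which the last 3 were named after their values were seen. Kcnab1 had 63.2 and 87.5 CPM in sham and 29.8 CPM in the 6-OHDA library (log2 fold change -1.34 ± 0.22, edgeR adjusted p = 0.0129), and Dgkb had 68.8 and 73 CPM and then 32.7 CPM (log2 fold change -1.11 ± 0.16, edgeR adjusted p = 0.00976). Leaving out either sham library left 0 of the 59 genes called in either direction.

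Against the 6-OHDA library, 17 of the 59 leading genes fell and 5 rose in the 6-OHDA+NDST3 libraries by the edgeR test, beside 6.59% lower and 9.06% higher among all genes, with a median log2 fold change of -0.75. This comparison shares its single 6-OHDA library with the one above, so the opposite signs are not independent. Tagln fell by 5.08 ± 0.35 on the log2 scale, Acta2 fell by 2.44 ± 0.22 and Myl9 fell by 2.33 ± 0.17 (edgeR adjusted p = 0.032 for each). Myh11 had 7.37 and 8.31 CPM in the 6-OHDA+NDST3 libraries (log2 fold change -1.24 ± 0.17, edgeR adjusted p = 0.032), and Cnn1 had 0.605 and 0.653 CPM, against 5.03 CPM in the 6-OHDA library (log2 fold change -3.0, edgeR adjusted p = 0.0339). Of the 25 contractile genes, 11 fell and Pcp4l1 rose. The genes that rose among the 59 were again Dgkb, Kcnab1, Gucy1a1, Gucy1b1 and Rcan2, with Kcnab1 at 82 and 87.4 CPM (log2 fold change 1.51, edgeR adjusted p = 0.0336). No leading gene was called, in either direction, without sham replicate 1, sham replicate 2 or 6-OHDA+NDST3 replicate 1.

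Between the 6-OHDA+NDST3 and sham libraries, the comparison with 2 libraries on each side, edgeR called 0 of the 59 leading genes and 0% of all genes in either direction. At an unadjusted p under 0.05 in edgeR, 2 leading genes were higher and 10 lower. Over both directions, 2744 of the 19300 genes tested passed the same threshold. DESeq2, for which no share over all genes is given here, called 1 higher and 6 lower, so these counts cannot be read as a trait of the leading genes. The median log2 fold change of the 59 genes was -0.14. Acta2 had a log2 fold change of -1.46 ± 0.19 (edgeR adjusted p = 0.152), Tagln -1.53 ± 0.29 (edgeR adjusted p = 0.164) and Myh11 -1.39 ± 0.14 (edgeR adjusted p = 0.152). All 6 contractile markers had a negative value, although none passed the adjusted threshold. Mylk turned positive without 6-OHDA+NDST3 replicate 1, as given below. The median log2 fold change over all genes tested was 0.0099, and the share with a negative value was not counted.

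**Figure D5:**
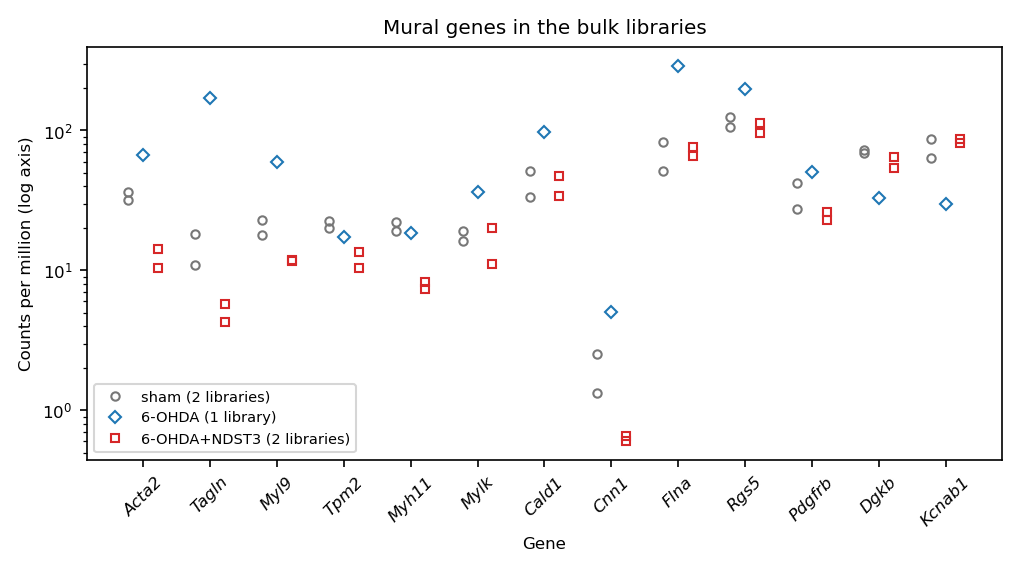
CPM on a log axis for 13 mural genes in each bulk library: circles are sham, the diamond is the 6-OHDA library and squares are 6-OHDA+NDST3. For Tagln the diamond lies at 170 against 10.9 and 18.1 in sham, whereas for Myh11 it lies just below the sham points, at 18.5 against 19.1 and 22, and for Dgkb and Kcnab1 it is the lowest point.

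Genes of other cells moved in the same bulk libraries. Of the 12 pericyte markers, 4 rose in the 6-OHDA library against sham by the edgeR test, beside the 18.8% of all genes that rose. They included Rgs5, with 124 and 106 CPM in sham and 197 CPM in the 6-OHDA library (log2 fold change 0.77, edgeR adjusted p = 0.0196), and Anpep, with 12.3 and 6.75 CPM and then 62.5 CPM (log2 fold change 2.72, edgeR adjusted p = 0.0106). Pdgfrb had 42.1 and 27.6 CPM in sham and 50.8 CPM in the 6-OHDA library (log2 fold change 0.55, edgeR adjusted p = 0.171). Of the 12 fibroblast markers, 9 rose, beside the same 18.8%, with Dcn, the proteoglycan decorin, at 50.3 and 31.4 CPM in sham and 167 CPM in the 6-OHDA library (log2 fold change 2.03, edgeR adjusted p = 0.0107). Dcn had a level of at most 0.0638 in cluster 5. The summed fibroblast list was 1602 and 822 CPM in sham, 3375 CPM in the 6-OHDA library, and 763 and 906 CPM in the 6-OHDA+NDST3 libraries. The summed contractile lists were 1563 and 1427 CPM, then 2539 CPM, then 1463 and 1520 CPM. The summed endothelial list was 347 and 300.3 CPM, then 463 CPM, then 273 and 308 CPM, and the summed red cell list was 711 and 404 CPM, then 1817 CPM, then 349 and 350.4 CPM. The summed microglia list was 391 and 298 CPM, then 2324 CPM, then 807 and 1330.0 CPM. All 10 neuron markers fell in the 6-OHDA library, beside 17.1% of all genes, from 6730 and 7525 CPM summed in sham to 2503 CPM, and Dgkb and Kcnab1 are also known from neurons. The part of these cells in the bulk values of the cluster 5 genes was not tested.

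By the deposited distances, all chromatin regions listed for these genes lay near a start site. Most deposited positions could not be matched to RefSeq GRCm38 starts, as given below. How many of all deposited regions lay as near was not counted. Of the 36 genes made up of the 20 with the largest lead and the contractile lists, 8 had an H3K27ac region, or 22.2%, and 2 had an ATAC region, or 5.56%, beside 48.7% and 11.8% of the 7456 genes detected in cluster 5. Of the 59 leading genes, 17 had an H3K27ac region and 7 an ATAC region, or 28.8% and 11.9%. H3K27ac marks active promoters and enhancers, and ATAC-seq signal marks open chromatin. Each ATAC value came from 1 library and each H3K27ac value from 2 libraries given together, so there was no error or test, and the normalisation of the signal is not known. The Acta2 region at a deposited distance of -178 bases from the start had an ATAC signal of 18.2 in sham, 11 in 6-OHDA and 15 in 6-OHDA+NDST3. A second Acta2 region, at -882 bases, had 15.2, 8 and 11. Both were lowest in the 6-OHDA library. The H3K27ac region of Myl9 at -473 bases had 6.5 in sham, 2.5 in 6-OHDA and 6 in 6-OHDA+NDST3. The region of Kcnab1 at 97 bases had 29.6, 28.9 and 38.7, and that of Dgkb at 91 bases had 24.1, 30.4 and 31.8. Over the 10 H3K27ac regions of these genes, 8 were higher with NDST3 than with 6-OHDA alone, beside 96.3% of all 11424 regions. Of the 10, 3 were higher in 6-OHDA than in sham, beside 57.4% of all regions.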

How the data were processed

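The authors aligned single-cell reads to mm10 with Cell Ranger, filtered cells by detected genes and mitochondrial share, which was also their guard against multiplets, and clustered the 6-OHDA and 6-OHDA+NDST3 cells together. The deposited single-cell values are named mean counts, but their range and sums fit means of the natural log of 1 plus UMIs scaled to 10000 per cell, and they were read as such. Of 26650 rows, 26 with symbols turned into dates were left out. The authors deposited raw bulk counts per gene, from HISAT2 and StringTie with mm10 named, and the deposited H3K27ac and ATAC values are a signal per region with no stated normalisation. Deposited FPKM, TPM and fold-change columns were not used.

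Bulk counts were tested with edgeR 4.0.16 in R 4.3.3 (glmQLFit and glmQLFTest, TMM factors, filterByExpr, all 3 groups in 1 fit, 2 residual degrees of freedom), with Benjamini-Hochberg adjustment over 19300 genes, and the script was tested on simulated counts. DESeq2 1.42.0 was an alternative. The biological coefficient of variation was 20.3%. CPM are counts scaled to an equal library total after TMM. Levels and differences from the single-cell table had no test. Genes were named by rule: the fixed markers, the 20 largest leads, the largest library differences, and members of fixed lists. The members and lists were chosen with earlier results of these data known. Gene spans and promoters came from RefSeq GRCm38. Deposited region positions, offset by the deposited distance, fell within 1000 bases of a RefSeq GRCm38 start of the same gene for 3.57% of matched H3K27ac regions and 10.5% of matched ATAC regions, so no region coordinates are given and regions are placed by deposited distance only.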

Additional observations from a re-analysis of the deposited data

How the results depend on the processing

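The count of 59 leading genes became 144 with the mean of the other 8 clusters as reference and 95 after back-transformation and scaling to an equal sum, and both sets held all 59. It was 183 at a lead of 0.5. The 12 genes higher with NDST3 in cluster 5 became 1 at a size of 0.5, 28 after back-transformation and 29 at a size of 0.2, a size added after the data were seen. The 13 lower genes became 0, 23 and, with the median of the other clusters subtracted, 5, at a size of 0.5, a size of 0.2 and the usual size. With that subtraction Lyz2 changed to 0.0287, Spp1 to 0.0328, H2-Ab1 to -0.0305 and H2-Aa to -0.0148. In bulk, the calls among leading genes for 6-OHDA+NDST3 against 6-OHDA became 0 higher and 0 lower with only the 2 groups compared, and 3 higher with a fold of 2 and raw p under 0.05. For 6-OHDA+NDST3 against sham that threshold gave 4 lower. DESeq2 gave 8 lower for 6-OHDA against sham, and 1 higher and 6 lower for 6-OHDA+NDST3 against sham. Leaving out each replicate gave 0 to 20 higher and 0 to 7 lower for 6-OHDA against sham, 0 to 5 higher and 0 to 22 lower for 6-OHDA+NDST3 against 6-OHDA, and 0 in both directions for 6-OHDA+NDST3 against sham. These fits hold fewer libraries and 1 residual degree of freedom. In 6-OHDA+NDST3 against sham, where no gene was called, leaving out 1 replicate turned the sign of 6 log2 fold changes, with ranges of -0.34 to 0.28 for Cald1 (positive without sham replicate 1 and, at 0.15, without 6-OHDA+NDST3 replicate 1), -0.049 to 0.42 for Kcnab1 (negative without sham replicate 1), -0.22 to 0.46 for Flna (negative without sham replicate 2 and, at -0.055, without 6-OHDA+NDST3 replicate 2), -0.013 to 0.23 for Wtip and -0.16 to 0.094 for Pcp4l1 (both turned without sham replicate 2), and -0.68 to 0.18 for Mylk (positive without 6-OHDA+NDST3 replicate 1). Replicate numbers did not pair the libraries (r = -0.432 between the same-numbered sham and 6-OHDA+NDST3 libraries), and a replicate block left 5 higher for 6-OHDA against sham and 0 higher and 0 lower for 6-OHDA+NDST3 against 6-OHDA. With crossed numbers, added after the data were seen, the block gave 1 higher and 6 lower for 6-OHDA+NDST3 against sham. No share over all genes is given for these alternative fits and thresholds. Their counts show how the calls moved and not a trait of the leading genes. The other causes were not tested. The missing cell numbers and depth per cell limit every single-cell value, and the 1 6-OHDA library limits both bulk comparisons that use it.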
